A study of Homo sapiens with 9 samples.

Results

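The 40 genes described here encode cytokines, chemokines and interferons, the secreted proteins by which a cell warns and recruits others. They were chosen by name as 6 type I interferons, the type II interferon IFNG, 3 type III interferons, 11 interleukins, 7 CXC chemokines, 7 CC chemokines, 3 colony-stimulating factors and 2 ligands of the tumour necrosis factor superfamily. All 40 were found among the 20037 protein-coding genes of the RefSeq table for GRCh38.p14. For each gene, the deposited ATAC-seq peaks in the gene or within 10 kb of it were collected. A gene was called open in a list when a peak touched the 1 kb on either side of its start or its end, and closed otherwise. These windows held 42 sites, out of 71597 sites in the whole series, a site being a stretch of overlapping peaks from the different lists.

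ATAC-seq marks open chromatin, because the transposase Tn5 inserts sequencing adapters where DNA is exposed. The cells were HEK293T, an established human embryonic kidney line, grown without any treatment. The control group (WT, CRISPR/Cas9 with a non-targeting guide) had 2 libraries, the IGF2BP1 gene knockout had 3, and the IGF2BP2 and IGF2BP3 gene knockouts had 2 each. The knockouts were made by transient transfection of a plasmid with 3 guides against the gene, and 1 clone of each was used, so that clone and knockout cannot be told apart; the number of control clones is not given in the sources used here. IGF2BP1, IGF2BP2 and IGF2BP3 are RNA-binding proteins that bind and stabilise messenger RNAs, and the series title places them as suppressors of innate immune signalling.

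Most cytokine genes are silent in unstimulated cells and are switched on within hours when sensors of microbial nucleic acid or cell damage activate the transcription factors NF-kappaB, AP-1 and the interferon regulatory factors (IRF). Interferons then act through their receptors to induce antiviral genes, interleukins steer inflammation and lymphocyte growth, chemokines attract leukocytes, and colony-stimulating factors support myeloid cells. Kidney epithelial cells can secrete several of them, among them IL6, CXCL1, CXCL8 and CCL2, when stimulated.

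The authors deposited 1 peak list for each group, with positions only. The control list held 39194 peaks, the IGF2BP1 knockout list 50917, the IGF2BP2 knockout list 60262 (1.54 times the control) and the IGF2BP3 knockout list 44041. No value per library and no depth was given, so there was no spread between replicates, no test was possible, and no difference between lists was shown to exceed replicate error. Batch 1 held a library of the IGF2BP1 knockout only. The knockout lists are called IGF2BP1 KO, IGF2BP2 KO and IGF2BP3 KO below, and runs of 4 or 3 values follow the order control (where given), IGF2BP1 KO, IGF2BP2 KO, IGF2BP3 KO. Of 15 marker genes for HEK293T, embryonic kidney or neural background, 10 were open in all 4 lists (among them SALL1, LHX1, NEFM and KRT18), whereas PAX2, PAX8, SALL4 and LIN28B were closed at their ends in every list and EYA1 was open in IGF2BP3 KO alone. Of 12 leukocyte markers, 7 were closed in all 4 lists (among them PTPRC, CD14, MS4A1, CD3D, LYZ and NKG7). SPI1 and CD68 were open in all 4 lists and ITGAM in every list but IGF2BP3 KO. CD3E was open in IGF2BP1 KO alone and CSF1R in IGF2BP2 KO alone. Among the fibroblast and endothelial markers, COL1A1 was open in all 4 lists. PDGFRB and COL1A2 were open in IGF2BP2 KO alone, and VWF, CDH5 and PECAM1 were closed in every list.

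The promoters of the members that the results turn on are shown first, as 300-base windows of the reference genome from RefSeq (GRCh38.p14), 250 bases before to 50 after the gene start, read 5′ to 3′ on the strand of the gene. Of the 40 members, 31 matched the promoter table; CCL2, CCL4, CCL5, CSF1, CSF3, IFNW1, IL15, IL18 and IL7 did not. The windows were searched for 4 short motifs on both strands, and the matches are in capitals: GGNNNTTCC, a loose form of the NF-kappaB site, TGANTCA for AP-1, GAAA followed by any 2 bases and GAAA for IRF proteins, and TATAAA, the TATA box. No member had overlapping matches of different motifs. The neutrophil-attracting chemokines CXCL1 (chr4:73869143-73869442, plus strand), CXCL2 (chr4:74099146-74099445, minus strand) and CXCL3 (chr4:74038640-74038939, minus strand), and IL6 (chr7:22726950-22727249, plus strand), a cytokine that drives fever and acute-phase responses, are shown because they were open in every list:
CXCL1: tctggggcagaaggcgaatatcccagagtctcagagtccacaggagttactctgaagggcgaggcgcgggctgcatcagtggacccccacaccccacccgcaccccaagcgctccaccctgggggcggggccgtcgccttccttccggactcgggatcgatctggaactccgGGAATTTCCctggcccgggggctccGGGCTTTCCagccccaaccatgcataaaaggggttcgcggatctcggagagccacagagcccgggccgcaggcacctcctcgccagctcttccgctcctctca
CXCL2: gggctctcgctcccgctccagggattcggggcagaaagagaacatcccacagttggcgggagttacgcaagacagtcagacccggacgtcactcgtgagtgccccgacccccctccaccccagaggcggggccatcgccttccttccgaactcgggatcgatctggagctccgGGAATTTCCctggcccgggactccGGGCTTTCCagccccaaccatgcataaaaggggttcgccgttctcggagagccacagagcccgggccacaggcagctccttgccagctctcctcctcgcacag
CXCL3: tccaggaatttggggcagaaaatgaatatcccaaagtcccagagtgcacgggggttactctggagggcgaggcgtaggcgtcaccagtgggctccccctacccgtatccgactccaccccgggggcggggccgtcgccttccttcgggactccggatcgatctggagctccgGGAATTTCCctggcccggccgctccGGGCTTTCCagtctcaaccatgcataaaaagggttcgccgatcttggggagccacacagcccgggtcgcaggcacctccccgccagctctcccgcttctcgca
IL6: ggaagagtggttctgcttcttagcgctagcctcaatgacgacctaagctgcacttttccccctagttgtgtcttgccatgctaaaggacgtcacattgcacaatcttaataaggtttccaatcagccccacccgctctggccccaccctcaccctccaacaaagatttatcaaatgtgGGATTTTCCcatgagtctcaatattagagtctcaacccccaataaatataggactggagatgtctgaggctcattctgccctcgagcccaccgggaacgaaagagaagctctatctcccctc

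The type III interferon genes IFNL2 (chr19:39268146-39268445, plus strand) and IFNL3 (chr19:39245201-39245500, minus strand), which protect epithelia against viruses, and TNFSF10 (chr3:172523381-172523680, minus strand), which encodes the death ligand TRAIL, are shown because a peak covered their starts in knockout lists and not in the control list:
IFNL2: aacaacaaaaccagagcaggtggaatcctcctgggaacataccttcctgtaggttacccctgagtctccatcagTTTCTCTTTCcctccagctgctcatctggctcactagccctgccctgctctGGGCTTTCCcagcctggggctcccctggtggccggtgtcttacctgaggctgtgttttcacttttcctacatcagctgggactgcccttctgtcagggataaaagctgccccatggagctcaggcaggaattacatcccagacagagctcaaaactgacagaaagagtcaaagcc
IFNL3: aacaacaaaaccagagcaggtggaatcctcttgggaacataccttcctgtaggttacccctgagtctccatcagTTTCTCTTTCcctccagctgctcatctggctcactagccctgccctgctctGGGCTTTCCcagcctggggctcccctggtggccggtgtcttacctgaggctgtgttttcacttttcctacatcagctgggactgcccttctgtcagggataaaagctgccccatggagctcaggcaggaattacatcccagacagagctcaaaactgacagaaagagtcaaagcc
TNFSF10: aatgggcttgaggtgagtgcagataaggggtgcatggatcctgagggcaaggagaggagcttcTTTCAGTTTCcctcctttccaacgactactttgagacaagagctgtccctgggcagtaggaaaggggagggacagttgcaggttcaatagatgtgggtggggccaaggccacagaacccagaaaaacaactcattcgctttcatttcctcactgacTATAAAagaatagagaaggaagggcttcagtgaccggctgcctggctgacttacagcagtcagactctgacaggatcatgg

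The IFNL2 and IFNL3 windows were identical at 299 of 300 bases (99.7%). The single difference was C31T, counted from 1 at the 5′ end of the window with the IFNL2 base first. Reads from copies this alike cannot always be assigned to one of them, so the peaks at IFNL2 and IFNL3 are uncertain as to which copy they came from. The interferon alpha genes are also known as close copies of one another, but their identity was not measured here. The IFNL1 window was 54.3% identical to that of IFNL2.

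Matches were more frequent in the members than over the 15842 protein-coding genes with a window. The kappa-B form occurred in 12 of 31 members (38.7%) and 21.7% of all windows, AP-1 in 5 (16.1%) and 5.7%, the IRF form in 9 (29.0%) and 3.2%, and TATAAA in 15 (48.4%) and 9.7%. CXCL1 and CXCL3 each held kappa-B matches at -78 and -53 relative to the start, and CXCL2 at -77 and -53. IL6 had 1 at -72. Both IFNL2 and IFNL3 held an IRF match at -176 and a kappa-B match at -125, and TNFSF10 held an IRF match at -187 and TATAAA at -31. IFNA2, IL1B, IL12B and IL33 had no match, which says only that these letters are not in that window. Genes of like sequence were counted separately, such as IFNL2 and IFNL3 or CXCL1, CXCL2 and CXCL3. The GC content of the windows, which differed between members and coding genes, was not matched. A match is a description of the sequence and not evidence of binding.

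Few cytokine genes were open in any of the lists. At a gene end, 9 of the 40 members (22.5%) had a peak in the control list, 10 (25%) in IGF2BP1 KO, 15 (37.5%) in IGF2BP2 KO and 10 (25%) in IGF2BP3 KO. Among all protein-coding genes, the corresponding shares were 66.1%, 68.4%, 68.0% and 66.8%. Counting any peak in the gene or within 10 kb, 16, 19, 24 and 19 members had one, that is 40%, 47.5%, 60% and 47.5%, against 83.8%, 86.7%, 87.4% and 84.8% of all protein-coding genes. This window grows with the length of the gene, and length was not matched. Members ran from 839 bp (IFNB1) to 130420 bp (IL7). The members fell into 3 classes. IL6, IL7, IL12A, IL12B, IL15, CXCL1, CXCL2, CXCL3 and CSF1 (9 genes) were open in all 4 lists, 7 genes were open in 1 or 2 KO lists but closed in the control, and 24 were closed in every list. Of the 15842 coding genes with a promoter window, 10431 were open in all 4 lists, 1106 in 1 to 3 and 4305 in none. No member was open in the control list and closed in a knockout list.

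**Figure D1:**
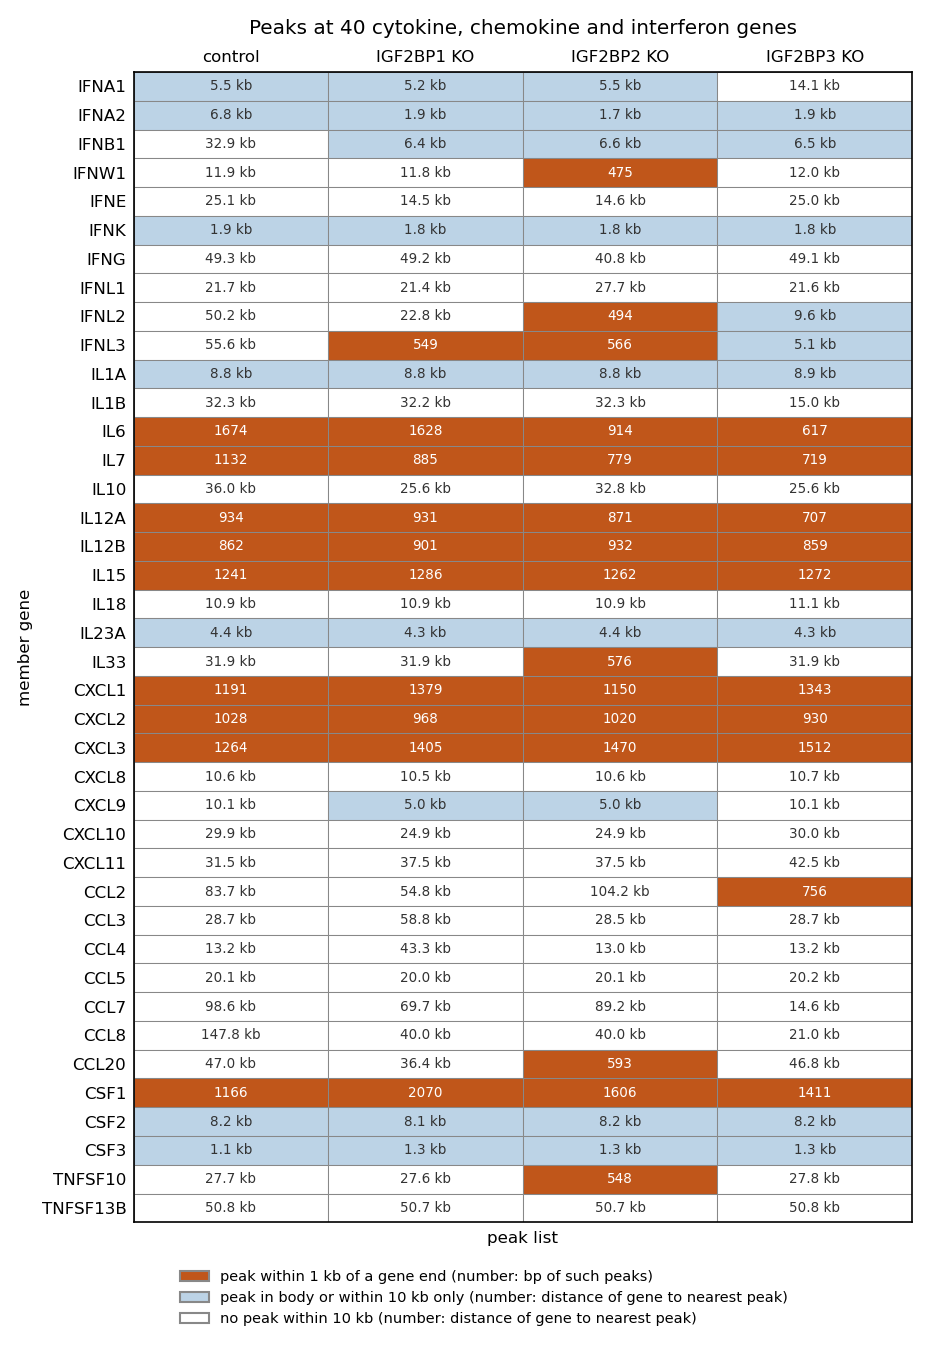
Class of each of the 40 members (rows) in each peak list (columns). Dark orange cells mark genes with a peak within 1 kb of a gene end and give the summed width of such peaks in bp, light blue cells mark genes with a peak in the body or within 10 kb only, and white cells genes with none, the latter kinds with the distance from the gene to the nearest peak in kb. The 9 genes open in all lists fill whole rows, and 6 of the 7 genes with a differing class are dark in the IGF2BP2 KO column.

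**Figure D2:**
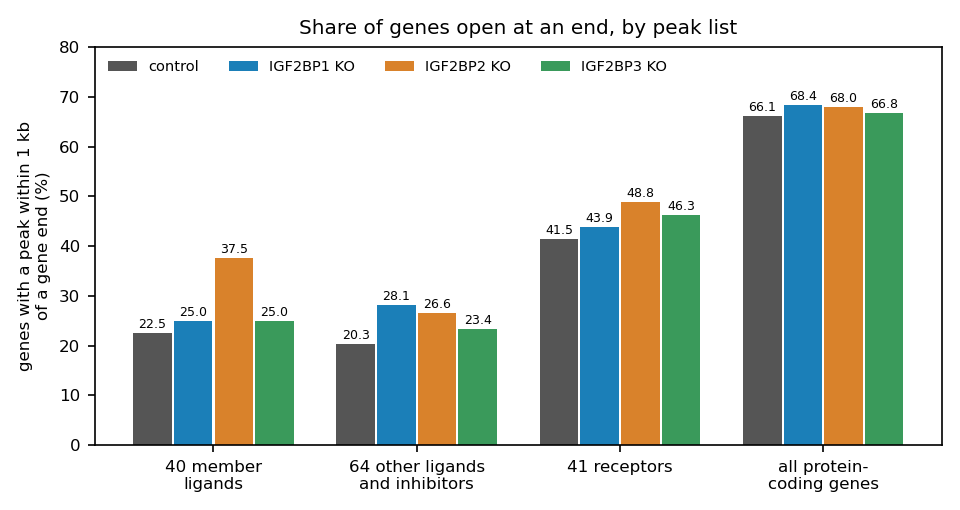
Share of genes with a peak within 1 kb of a gene end (y axis, %) for the members, 64 other cytokine ligands and inhibitors, 41 receptors and all protein-coding genes, with 1 bar per peak list and no error bars because each group is 1 list. The members stand at 22.5 to 37.5%, below the 66.1 to 68.4% of all protein-coding genes.

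Among interferons, no gene was open in the control list. The type I interferons signal through IFNAR1 and IFNAR2 and are the main antiviral cytokines of most cells. IFNB1 (chr9:21077104-21077942), usually the earliest to be induced, was closed in all lists, and its nearest peak lay 32.9 kb away in the control. In each knockout list, a peak stood 6.38 to 6.56 kb downstream of the gene, at chr9:21070218-21070728 in IGF2BP1 KO (511 bp), chr9:21070218-21070541 in IGF2BP2 KO (324 bp) and chr9:21070248-21070565 in IGF2BP3 KO (318 bp). These were narrow peaks, at width percentiles 11.1, 4.9 and 3.0 of their own lists. Width percentile is the rank of a peak's width within its list, and it stands in here for a peak score.

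IFNA2 (chr9:21384255-21385398) had the widest of the member sites that every KO list held and the control lacked. The peaks lay 1.72 to 1.88 kb downstream of the gene and measured 750 bp in IGF2BP1 KO (chr9:21381623-21382372), 954 bp in IGF2BP2 KO (chr9:21381579-21382532) and 885 bp in IGF2BP3 KO (chr9:21381516-21382400), at percentiles 40.9, 77.3 and 65.7. A second site, 6.74 kb upstream of IFNA2, was present throughout, with widths of 672, 740, 508 and 480 bp in the 4 lists. The gene itself stayed without a peak within 1 kb of its ends. With the gene-end window set at 2 kb, the downstream site made IFNA2 count as open in all 3 knockouts.

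A site 5.21 kb upstream of IFNA1 showed another pattern. It was present in the control (729 bp), IGF2BP1 KO (959 bp) and IGF2BP2 KO (476 bp), and absent from IGF2BP3 KO, where the nearest peak was 14.12 kb from the gene. IFNW1 (chr9:21140632-21141832), interferon omega, had a peak of 475 bp inside the gene in IGF2BP2 KO alone (chr9:21141140-21141614, percentile 23.2). In the other lists, the nearest peaks were 11.8 to 12.0 kb away. IFNE, the interferon of the reproductive tract, had no peak within 10 kb in any list. IFNK, the keratinocyte interferon, was closed, and the wide site 1.75 kb downstream, of 1535 to 1867 bp, covered the start of the neighbouring gene MOB3B. A further site 9.27 kb downstream of IFNK was in IGF2BP3 KO alone (437 bp, percentile 14.6).

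**Figure D3:**
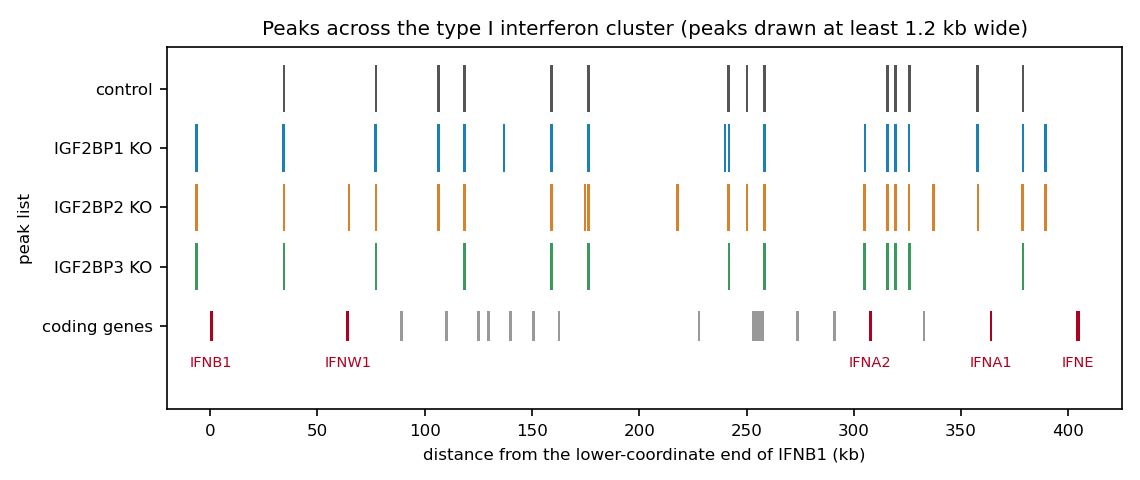
Peaks of each list (coloured ticks, 1 row per list) and protein-coding genes (bottom row, members in red and other genes in grey) along the type I interferon cluster, with the x axis in kb from the lower-coordinate end of IFNB1. Most ticks line up in all 4 rows and lie between genes, and the tick over IFNW1 is in the IGF2BP2 KO row only.

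The type I interferon cluster from IFNB1 to IFNE spans 405.2 kb and 17 protein-coding genes. It held 14 peaks in the control list and 17, 20 and 12 in the 3 KO lists. This came to 3.45 peaks per 100 kb in the control, against 1.17 for chromosome 9 as a whole, and to 4.2, 4.94 and 2.96 in the knockouts, against 1.49, 1.82 and 1.32. Despite this density, KLHL9, an adaptor of a ubiquitin ligase and no interferon, was the one gene of the cluster open in the control, IGF2BP1 KO and IGF2BP3 KO. IFNW1 joined it in IGF2BP2 KO. Merged over the lists there were 22 sites, of which 20 lay more than 1 kb from any coding gene's end. The share of all sites that lie so was not counted. All 4 lists held 11 of the 22, and 48.9% of the sites in or within 10 kb of any coding gene.

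IFNG, the type II interferon made by T and NK cells, had its nearest peak 40.84 to 49.28 kb away. The type III cluster on chromosome 19 differed between lists at gene starts. From IFNL3 to IFNL1 (55.2 kb), it held 0 peaks in the control list, 1 in IGF2BP1 KO, 3 in IGF2BP2 KO and 1 in IGF2BP3 KO. Per 100 kb these were 0, 1.81, 5.43 and 1.81, against 2.82, 3.01, 3.42 and 2.57 for chromosome 19, so the counts are those of a short region and too few to compare rates. At IFNL3 (chr19:39243455-39245250), a peak covered the start and the whole 300-base window printed above in IGF2BP1 KO (chr19:39245052-39245600, 549 bp, percentile 15.9) and in IGF2BP2 KO (chr19:39245042-39245607, 566 bp, percentile 38.8). The control list had no peak within 55.6 kb of the gene. At IFNL2 (chr19:39268396-39270188), the IGF2BP2 KO peak (chr19:39268197-39268690, 494 bp, percentile 26.6) covered the start and 249 bases of the window. IGF2BP3 KO had no peak at either start. An end of IFNL4 also lies within 1 kb of the IFNL3 peaks.

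Both the IGF2BP2 and IGF2BP3 KO lists held a pair of further sites around these genes. One lay 5.06 kb downstream of IFNL3 (423 bp and 553 bp), at the pseudogene IFNL3P1 and an uncharacterised gene. The other lay 9.48 kb upstream of IFNL2 (692 bp at percentile 55.4, and 439 bp at percentile 14.9). IFNL1 had its nearest peak 21.39 to 27.72 kb away.

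**Figure D4:**
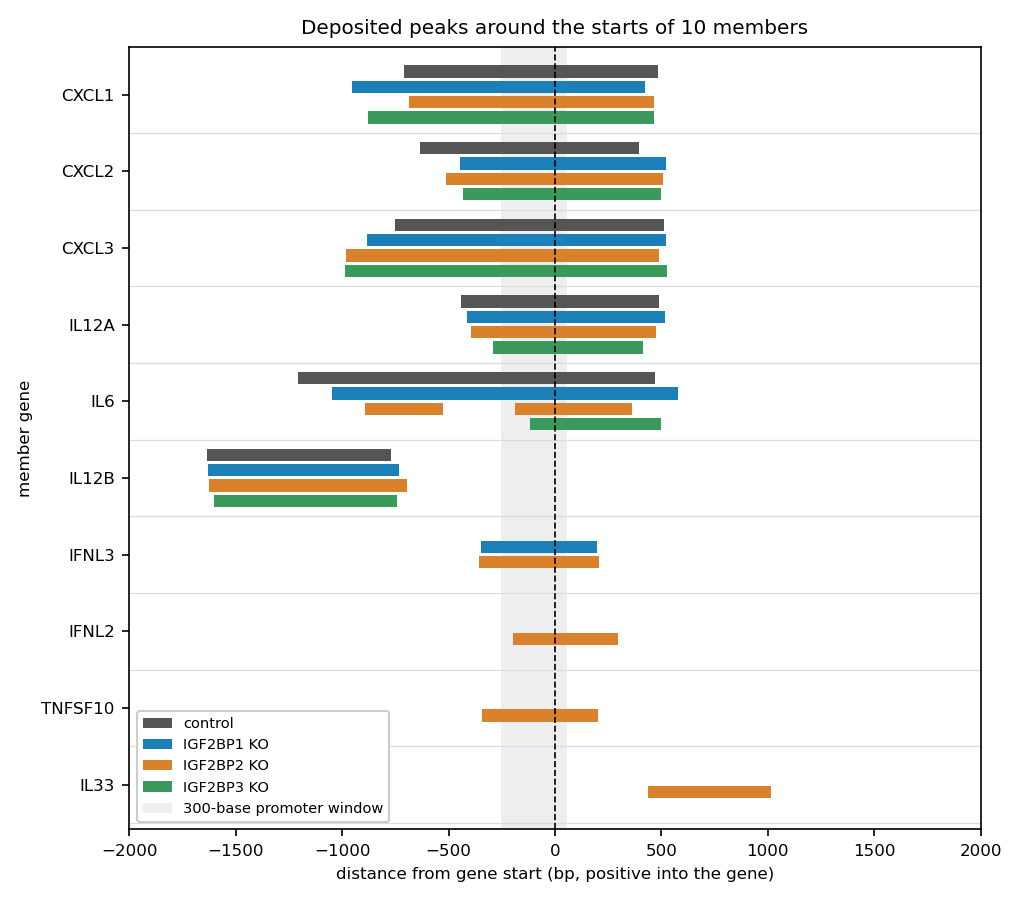
Deposited peaks (bars, coloured by list) around the starts of 10 members, with the x axis in bp from the gene start, positive into the gene, and the 300-base promoter window shaded. CXCL1, CXCL2, CXCL3 and IL12A have bars over the start in all 4 lists, the IL6 bars are shorter in IGF2BP2 KO and IGF2BP3 KO, the IL12B bars end 697 to 774 bp before the start, and TNFSF10, IFNL2 and IL33 have a bar in IGF2BP2 KO only.

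Of the 11 interleukin genes, 5 were open in all lists. IL6 (chr7:22727200-22731998) was the open gene whose peak changed most in extent. The control peak ran from 1206 bp before to 467 bp after the start (chr7:22725994-22727667, 1674 bp), and the IGF2BP1 KO peak was of similar length (1628 bp). In IGF2BP2 KO, there were 2 peaks instead, one of 364 bp that ended 528 bp before the start and one of 550 bp over the start. In IGF2BP3 KO, a single peak of 617 bp began 117 bp before the start, so that 167 of the 300 promoter bases were covered, against 300 in the control and IGF2BP1 KO and 236 in IGF2BP2 KO. The kappa-B match at -72 lay inside the covered part in every list. The site also covered the start of the neighbouring gene IL6-AS1, so it cannot be assigned to one of them.

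IL12A and IL12B encode the 2 chains of interleukin 12, which directs T cells toward interferon gamma production. At IL12A (chr3:159988835-159996019), the start was covered by peaks of 934 bp in the control, 931 bp in IGF2BP1 KO, 871 bp in IGF2BP2 KO and 707 bp in IGF2BP3 KO. A site 7.6 kb downstream, at chr3:160003619-160003875, was in the control alone, and with 257 bp it stood at percentile 0.3 of that list. IL12B (chr5:159314780-159330487) counted as open through a peak that did not touch its start. Its peaks of 862, 901, 932 and 859 bp ended 774, 733, 697 and 743 bp before the start, over the start of the antisense gene IL12B-AS1, and the promoter window of IL12B had 0 covered bases in every list. With a gene-end window of 0.5 kb, IL12B was closed in all 4 lists. Another site inside the gene, 13185 to 13259 bp after the start, was in all lists (504, 515, 504 and 656 bp).

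IL15 and IL7, which sustain lymphocytes and are made by stromal and epithelial cells, were open in every list. The IL15 peak at the lower-coordinate end (chr4:141636068-141637308 in the control) varied little, with 1241, 1286, 1262 and 1272 bp in the 4 lists. The body of IL15 was where the lists diverged. Inside this gene of 97405 bp, the control and IGF2BP3 KO had no other peak, IGF2BP1 KO had 2 and IGF2BP2 KO had 4. One site was shared by these lists (756 bp at chr4:141652274-141653029 in IGF2BP1 KO, 364 bp at chr4:141652352-141652715 in IGF2BP2 KO). The sites at chr4:141654150-141654492, chr4:141675967-141676500 and chr4:141702446-141702746 were in IGF2BP2 KO alone, and chr4:141677708-141678260 was in IGF2BP1 KO alone. Their widths were 301 to 553 bp, at percentiles 2.8 to 33.7.

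At IL7 (chr8:78675044-78805463), the peak at the higher-coordinate end measured 1132 bp in the control and 885, 779 and 719 bp in the 3 KO lists. All knockout peaks lay inside the control peak. The site also overlapped the neighbouring gene MITA1, so it cannot be assigned to one of them. A site in the gene body (chr8:78762208-78762689, 482 bp, percentile 14.7) was in the control alone. IL33, an alarmin released by damaged epithelium, had a peak in IGF2BP2 KO alone (chr9:6215588-6216163, 576 bp, percentile 40.2). It began 439 bp after the gene start and covered none of the promoter window.

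The remaining interleukin genes were closed in every list. IL1A and IL23A had a site in all 4 lists within 10 kb, and each covered the start of a neighbour, CKAP2L for IL1A (973 to 1396 bp) and PAN2 for IL23A, which encodes a chain of interleukin 23 (971 to 1272 bp). IL1B, the secreted partner of IL1A in inflammation, and the anti-inflammatory IL10 were closed, with nearest peaks at 15.03 to 32.34 kb and 25.56 to 36.04 kb. IL18, which induces interferon gamma, lay just outside the 10 kb rule, with a peak of BCO2 at 10.88 to 11.08 kb.

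The CXC chemokines split into an open and a closed set. CXCL1, CXCL2 and CXCL3 attract neutrophils through CXCR2 and lie in 1 cluster on chromosome 4. Peaks over the CXCL1 start (chr4:73868684-73869874 in the control) measured 1191, 1379, 1150 and 1343 bp in the 4 lists. Those over the CXCL2 start measured 1028, 968, 1020 and 930 bp. CXCL3 had 1264, 1405, 1470 and 1512 bp, and its site also covered the start of the neighbouring gene LOC105377275. All 12 peaks covered the 300-base window whole, kappa-B matches included, and stood at width percentiles 62.9 to 95.1. The CXCL1 window was 82.5% identical to that of CXCL3 and 72.9% to that of CXCL2.

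CXCL8, the main human neutrophil attractant, belongs to the same cluster but was closed in every list. Its nearest peaks were 10.53 to 10.72 kb away, just outside the 10 kb rule. CXCL9, CXCL10 and CXCL11, induced by interferon gamma to attract T cells, were closed too, and the 34.8 kb from CXCL9 to CXCL11 held 0 peaks in all 4 lists. A narrow site 5.05 kb downstream of CXCL9 was in IGF2BP1 KO (329 bp, percentile 0.8) and IGF2BP2 KO (370 bp, percentile 9.9). The nearest peaks of the control and IGF2BP3 KO, at 10.09 and 10.14 kb, lay just outside the 10 kb rule.

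Of the 7 CC chemokine genes, 0 were open in the control and in IGF2BP1 KO. CCL2 (chr17:34255285-34257203), which attracts monocytes, was open in IGF2BP3 KO alone, through a peak of 756 bp over the lower-coordinate end of the gene (chr17:34254913-34255668, percentile 54.6). In the other lists, the nearest peaks were 83.66 kb (control), 54.78 kb (IGF2BP1 KO) and 104.22 kb (IGF2BP2 KO) away. From CCL2 to CCL8 (66.1 kb), IGF2BP3 KO held 2 peaks and the other lists 0. The 3.02 per 100 kb of IGF2BP3 KO was near its average of 2.5 over chromosome 17. CCL20, the ligand of CCR6, had a peak in IGF2BP2 KO alone (chr2:227818013-227818605, 593 bp, percentile 42.5). It lay 0.46 kb beyond the 3′ end, 4171 bp from the start. CCL3, CCL4 and CCL5, which attract T cells and monocytes, and CCL7 and CCL8, relatives of CCL2, had no peak within 10 kb in any list.

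The colony-stimulating factors all had peaks nearby. CSF1, the macrophage growth factor (chr1:109910506-109930992), was open at its lower-coordinate end in all lists, with peaks of 1166, 1322, 1126 and 1016 bp. At its other end, each KO list held a site that the control lacked. The peaks there measured 748 bp in IGF2BP1 KO (chr1:109930963-109931710), 480 bp in IGF2BP2 KO (chr1:109931098-109931577) and 395 bp in IGF2BP3 KO (chr1:109931181-109931575), at percentiles 40.6, 24.1 and 10.4. A site in the gene body (chr1:109923549-109923868, 320 bp) was in IGF2BP2 KO alone.

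CSF2, the granulocyte and macrophage factor GM-CSF, was closed at its ends, but the stretch between it and IL3 held 2 sites in every list. The wider of them, 8.14 kb upstream of CSF2, measured 1009, 1026, 998 and 987 bp, and the other, at 9.91 kb and the farthest site inside the 10 kb rule, measured 489, 526, 491 and 513 bp. CSF3, the granulocyte factor G-CSF, was closed, with sites in all lists at 1.15 kb (538 to 825 bp) and 9.07 kb (542 to 701 bp). Among the TNF superfamily ligands, TNFSF10 (chr3:172505508-172523430) was open in IGF2BP2 KO alone. The peak of 548 bp (chr3:172523228-172523775, percentile 36.1) ran from 345 bp before to 202 bp after the start and covered the whole window, including the IRF match and the TATA box. In the other lists, the nearest peak was 27.63 to 27.75 kb away. An end of the gene TBPL1P1 also lies within 1 kb of the IGF2BP2 KO peak. TNFSF13B, the B-cell survival factor BAFF, was closed, with its nearest peaks at 50.73 to 50.78 kb.

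The count of genes that differed from the control was set beside the same count over all protein-coding genes. Of the 31 members closed in the control list, 1 (IFNL3, 3.2%) was open in IGF2BP1 KO, as were 8.88% of all coding genes closed in the control. In IGF2BP2 KO, 6 were open (IFNW1, IFNL2, IFNL3, IL33, CCL20 and TNFSF10, 19.4%), and the background was 9.57%. In IGF2BP3 KO, 1 was open (CCL2, 3.2%), and the background was 6.85%. EYA1, 1 of 5 HEK293T and kidney markers closed in the control, was open in that list too, and its part in the result was not tested. Of the 9 members open in the control, 0 were closed in any knockout list, where 1.12%, 2.08% and 2.49% of coding genes open in the control were closed in the 3 KO lists. The 3 comparisons share the control list. IFNL2 and IFNL3, which make 2 of the 6 in IGF2BP2 KO, are near copies of each other. In the same list, 2 of the 5 fibroblast and endothelial markers closed in the control (PDGFRB and COL1A2) were open, and 1 of 9 leukocyte markers (CSF1R, the neighbour of PDGFRB). Among the leukocyte markers, CD3E was closed in the control and open in IGF2BP1 KO. ITGAM was open in the control and closed in IGF2BP3 KO. The part of these markers in the result was not tested.

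Limiting the lists to one length changed this count. When each list kept its 39194 widest peaks, 4 of the 31 members closed in the control were open in IGF2BP2 KO (IFNL3, IL33, CCL20 and TNFSF10). The background was 338 of 6789 coding genes (4.98%). IFNW1 and IFNL2 no longer counted. Under the same limit, 0 were open in IGF2BP1 KO (background 6.27%), and CCL2 was open in IGF2BP3 KO (background 5.89%). The lists also differed in peak width, with medians of 771, 834, 651 and 713 bp, so that the limit removed peaks of different width from each.

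Of the 42 sites near the members, 19 (45.2%) were in all 4 lists, where 48.9% of the sites near all coding genes were. The other 23 (54.8%, background 51.1%) were missing from at least 1 list. The largest class of these was IGF2BP2 KO alone, with 9 sites (21.4%, background 12.0%). Every KO list but not the control held 3 sites (7.1%, background 5.65%), those downstream of IFNB1 and IFNA2 and at the far end of CSF1. With the widest peaks alone, as above, 33 sites were left, of which IGF2BP2 KO alone had 4 (12.1%, background 5.67%). The IFNA2 site was the 1 (3.0%, background 3.06%) that every KO list but not the control still held. Sites in IGF2BP1 KO and IGF2BP2 KO alone numbered 3 (7.1%, background 7.07%), and those in IGF2BP2 KO and IGF2BP3 KO alone 2 (4.8%, background 2.56%). The control alone held 2 (4.8%, background 2.09%), at IL7 and IL12A. IGF2BP1 KO alone held 1 (2.4%, background 5.65%), IGF2BP3 KO alone 2 (4.8%, background 3.84%), and 1 (2.4%, background 5.26%) was missing from IGF2BP3 KO only. Counts this small move by 2.4 percentage points with each site.

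By position, 8 of the 23 differing sites touched an end of a member, 7 lay in a gene body away from its ends, and 8 outside the gene. Among the 19 sites in all lists, 9 were at a member's end and 12 were within 1 kb of an end of another gene. Of the 23 differing sites, 4 were within 1 kb of an end of another gene. Positions were not counted in this way for the sites near all coding genes. The member windows held 22 peaks in the control list, 27 in IGF2BP1 KO (1.23 times the control), 38 in IGF2BP2 KO (1.73 times) and 26 in IGF2BP3 KO (1.18 times). Around all coding genes, the corresponding ratios were 1.22, 1.37 and 1.05. The bases covered near the members differed less, at 20.9 kb in the control and 25.6, 27.1 and 22.0 kb in the knockouts.

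**Figure D5:**
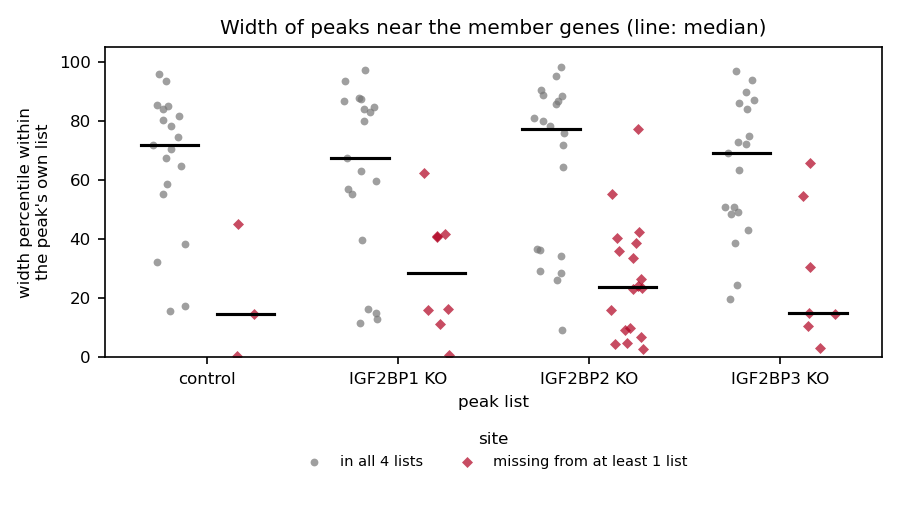
Width percentile, within its own list, of each peak near the members (y axis) for the 4 lists, with sites in all lists as grey circles, sites missing from at least 1 list as red diamonds and medians as lines. The medians of differing sites stand at 14.7 to 28.5, below those of shared sites at 67.3 to 77.2, and single diamonds in the knockout lists reach 62.2 to 77.3.

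The differing peaks were mostly narrow, with a median width percentile of 14.7, 28.5, 23.7 and 14.9 in the 4 lists. Peaks at sites in all lists stood at 71.8, 67.3, 77.2 and 69.1. Differing peaks near all coding genes were narrow as well (20.8, 29.5, 29.3 and 26.5). Among the member sites, the IFNA2 downstream peaks, the IFNL2 upstream peak of IGF2BP2 KO and the CCL2 peak of IGF2BP3 KO stood above percentile 50 in at least 1 list that held them while the control had none.

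Members open in all lists had the promoters richest in CpG, while the other classes did not follow the order seen over coding genes. The ratio of observed to expected CpG dinucleotides had a median of 0.69 in the 6 members open in all lists with a window, 0.09 in the 5 members open in 1 or 2 lists and 0.17 in the 20 closed members. Over coding genes, it was 0.84 for those open in all lists, 0.5 for those open in 1 to 3 and 0.29 for those closed in all. The median GC content of the same windows was 64.2%, 51.0% and 40.5% in the members and 65.7%, 59.7% and 52.7% over coding genes. CXCL1, CXCL2, CXCL3 and IL12A had ratios of 0.67, 0.71, 0.78 and 0.8. IL6 (0.4) and IL12B (0.16) were open with few CpG, the latter through the peak before its start. Among the closed members, IL1A reached 0.68. IFNL2 and IFNL3 had 0.05, and TNFSF10 had 0.16. These are descriptions over few genes, and members of a cluster share sequence.

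The receptors and the other ligands were read in the same way. Of 41 receptor genes, 16 were open in all lists, among them every listed interferon receptor (IFNAR1, IFNAR2, IFNGR1, IFNGR2 and IFNLR1), and 19 were closed in all. Of the 15842 coding genes with a promoter window, 10431 were open in all lists and 4305 closed in all. IL12RB2, a chain of the receptor for IL12A and IL12B, and TNFRSF10D, a decoy receptor for TNFSF10, were open in every KO list and closed in the control. The share of all coding genes with that pattern was not counted. The TNFRSF10D peaks were wide, with 1614, 1081 and 1553 bp in the 3 KO lists, and those at IL12RB2 measured 1078, 805 and 838 bp. CSF3R, the receptor for CSF3, was open in the control alone (1207 bp, chr1:36464076-36465282), through a peak outside the gene, beyond its lower-coordinate end. CCR2, the receptor for CCL2, and CSF1R, the receptor for CSF1, were open in IGF2BP2 KO alone, and TNFRSF13B, a receptor for TNFSF13B, in IGF2BP3 KO alone. The CCR2 peak (762 bp) lay outside the gene, beyond its higher-coordinate end. The CSF1R peak (482 bp, percentile 24.4) was inside the higher-coordinate end, and the TNFRSF13B peak (381 bp, percentile 8.9) inside the lower-coordinate end. Which of these ends is the gene start was not determined here.

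Of 64 other ligand and inhibitor genes, 13 (20.3%) were open in all lists, including LIF, TGFB1 and OSM, and 45 were closed in all, including TNF and all 11 further interferon alpha genes. CXCL6, which lies in the same cluster as CXCL1, was open in every KO list and closed in the control, with peaks of 708, 602 and 594 bp. IL11, an IL6 family cytokine, had the same pattern, and its widest peak was 1591 bp in IGF2BP1 KO. For this pattern too, the share of all coding genes was not counted. TNFSF15 was open in IGF2BP1 KO and IGF2BP2 KO, CCL28 and CX3CL1 in IGF2BP1 KO, and CXCL12 in IGF2BP2 KO. Of the 51 of these genes closed in the control, 5 (9.8%), 4 (7.8%) and 2 (3.9%) were open in the 3 KO lists. For the 24 receptors closed in the control, the numbers were 2 (8.3%), 4 (16.7%) and 3 (12.5%). Over all coding genes closed in the control, the shares were 8.88%, 9.57% and 6.85%. Of the 17 receptors open in the control, 1 (CSF3R) was closed in each KO list. Over all coding genes open in the control, 1.12%, 2.08% and 2.49% were closed in the 3 KO lists. These gene counts are small.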

How the data were processed

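Open chromatin was profiled in 9 ATAC-seq libraries in 4 groups, taken from the sample titles. Per the submitters' processing notes, the build was GRCh38 and the tools were fastp 0.24.1, BWA 0.7.17, MACS2 3.0.0 and bedtools. Their roles, the caller's threshold, any shift of reads for Tn5 and how the libraries were combined are not given in the sources used here. The authors deposited 4 lists of peak positions with no score, signal or p-value, so depth was unknown and peak width stood in for a score.

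Gene positions came from RefSeq (GRCh38.p14), without exons, and gene starts from its promoter table (31 of 40 members; where it lists several, the one nearest the gene's outer end). Peaks sharing at least 1 bp were joined into sites. Counts were made with Python 3.11.15 and pandas 2.3.3 and checked on simulated intervals. No test was made. All members were accounted for; those open in any list and all differing sites away from gene ends were named. Members, lists, motifs and promoters were chosen with earlier results of these data known. Alternatives covered the gene-end window, the flank, the overlap rule, peak trimming, the gene start alone and the widest peaks. One listed ligand, IFNL4, did not match a protein-coding gene, and whether a peak lies in an exon or intron was not determined.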

Additional observations from a re-analysis of the deposited data

How the results depend on the processing

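Of 87 recomputed counts under other settings, 79 were within 1.5 times the reported count. That limit takes in a fall from 6 to 4, and the counts of members lost were 0 under every setting. For 69 of 75 recomputed classes of named genes, the gene was open in exactly the same lists as reported. These classes cover only genes reported as open in at least 1 list, so a closed member could not count as changed. With a 2 kb window at gene ends, 2 members closed in the control were open in IGF2BP1 KO and 2 in IGF2BP3 KO, IFNA2 being added. IFNK and CSF3, reported as closed, were open in all 4 lists with that window, and the control then had 11 open members. Limited to the widest peaks, 0 such members were open in IGF2BP1 KO, sites in the 3 knockouts and not in the control numbered 1 (IFNA2), and sites in IGF2BP2 KO alone numbered 4. With the gene start alone, which leaves 31 members, 6 were open in IGF2BP3 KO, because CSF1, IL7, IL15 and CCL2 have no start in the promoter table. Without CCL2, 0 of the members closed in the control were open in that list. In IGF2BP2 KO, 4 such members were open at the gene start (IFNL2, IFNL3, IL33 and TNFSF10), against 6 as reported. With a 5 kb flank, 1 site was in the control alone. Of the 75 classes of named genes, 6 changed. They were those of IL12B (closed with a 0.5 kb window or with peaks trimmed to 200 bp), IFNW1, IFNL2 and IFNL3 (widest peaks) and CCL20 (gene start alone, since its peak is at the 3′ end). Joining peaks closer than 500 bp, or asking for 25% overlap, changed no count of sites. No paired analysis was possible because each group has 1 list of positions and no values per library, and no library was left out for the same reason. Depth was unknown, so the absence of a peak means only that none was called.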

Other observations

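Peaks were also counted over chemokine neighbourhoods. From CXCL8 to CXCL2 (358.6 kb, 9 coding genes), there were 5 peaks in the control list and 8, 9 and 7 in the 3 KO lists. Per 100 kb this came to 1.39, 2.23, 2.51 and 1.95, and chromosome 4 as a whole, with 0.94, 1.45, 1.78 and 1.14, was also lowest in the control. PF4, a platelet chemokine, was open in all of them, and PF4V1, PPBP and CXCL5 in none. From CCL5 to CCL4 (234.1 kb, 10 coding genes), the numbers were 5, 3, 3 and 5, or 2.14, 1.28, 1.28 and 2.14 per 100 kb, against 2.23, 2.15, 2.92 and 2.5 for chromosome 17. RDM1, a DNA repair gene, was open in every list, and CCL16 in every list but IGF2BP2 KO.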
